A study of Mus musculus with 2 samples.

Results

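Expression of the hypoxia-inducible factor (HIF) pathway was examined in regulatory T (Treg) cells with a Cre-driven deletion of the deubiquitinase gene *Usp21*. The genes were picked by name, with earlier results of these data known, and comprised HIF subunits, the oxygen sensors that act on them and hypoxia targets outside glycolysis. All 34 of these genes were found by symbol among the 16830 genes of the expression table. HIF is a dimer of an oxygen-regulated α subunit and the stable β subunit ARNT. When oxygen is present, prolyl hydroxylases of the EGLN family mark the α subunit for the ubiquitin ligase component VHL and the asparaginyl hydroxylase HIF1AN blocks its contact with coactivators, and when oxygen is low the dimer binds short hypoxia response elements and turns on genes of energy supply, mitochondrial turnover, matrix modification and blood vessel growth. In T cells HIF-1α is also raised by antigen receptor and mTOR signalling, and it has been linked both to glycolytic effector programmes and to the stability of Treg cells.

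RNA was sequenced from CD4+CD25hiYFP+ Treg cells sorted from spleen and lymph nodes of C57BL/6 mice, and the question was how loss of USP21 changed the transcriptome of these cells. The USP21-ΔTreg library came from animals of the genotype Foxp3-YFP-Cre/USP21-floxp/floxp and the WT library from animals of the genotype Foxp3-YFP-Cre, all at 6 months of age. Both genotypes therefore carried YFP-tagged Cre at the *Foxp3* locus, a design that directs deletion to cells that transcribe *Foxp3*. The floxed *Usp21* alleles were found in the USP21-ΔTreg mice alone. Where Cre acted was not tested with these 2 libraries. With 1 library per genotype there was no replicate, no test was made, and each difference is a difference between these 2 libraries. How many animals gave the cells of each library was not given in the sources used here.

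Numbers of fragments, here and below, were inferred from deposited counts that are not whole, with the commonest value above 0 taken as 1 fragment. So inferred, the fragments in genes numbered 23418575 for USP21-ΔTreg cells and 23198412 for WT Treg cells. *Usp21* stood at 4.56 FPKM (fragments normalised to the length of the transcript and the depth of the library) in USP21-ΔTreg cells, against 11.8 FPKM in WT Treg cells, counted over the whole gene and not the deleted part alone. Of the Treg markers, *Foxp3* had 55.2 FPKM in USP21-ΔTreg cells and 91.8 FPKM in WT Treg cells, and *Il2ra*, which encodes CD25, had 19.3 FPKM in USP21-ΔTreg cells and 168 FPKM in WT Treg cells, although both populations were sorted as CD25hi. The other 2 Treg markers were nearly level, *Ctla4* at 532 FPKM in USP21-ΔTreg cells and 516 FPKM in WT Treg cells and *Ikzf2* at 220.3 FPKM in USP21-ΔTreg cells and 186 FPKM in WT Treg cells, and the summed level of the T cell markers *Cd3e*, *Cd3d* and *Cd4* was 546 FPKM in USP21-ΔTreg cells and 349 FPKM in WT Treg cells. To each FPKM value 0.1 was added before the log2 ratio of USP21-ΔTreg to WT was taken, so that fold changes of weakly expressed genes are understated. Genes were kept where their FPKM averaged 1 or more (10948 of the 16830), and differences of 2-fold or more were counted. Over the genes kept the median log2 fold change was 0.20 on FPKM and −0.01 on scaled counts. Scaled counts are the deposited counts, treated as brought to a common scale by the authors. A value slightly above 0 on FPKM was therefore typical of all genes.

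Of the 33 pathway and target genes kept, 21 were lower in USP21-ΔTreg cells by 2-fold or more and 0 were higher, whereas 6.2% of all genes kept were lower and 7.78% were higher by the same rule. The median log2 fold change of the 33 genes was −1.67. On scaled counts 22 of the 33 were lower and 0 higher, with a median of −1.94, beside 7.93% lower and 4.34% higher among all genes kept. The lower genes were 19 of the 26 targets kept and a pair of the oxygen sensors, and the HIF subunits themselves lay near 0. In sorted bulk RNA, fewer cells that express a gene and less RNA of it per cell cannot be told apart.

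**Figure D1:**
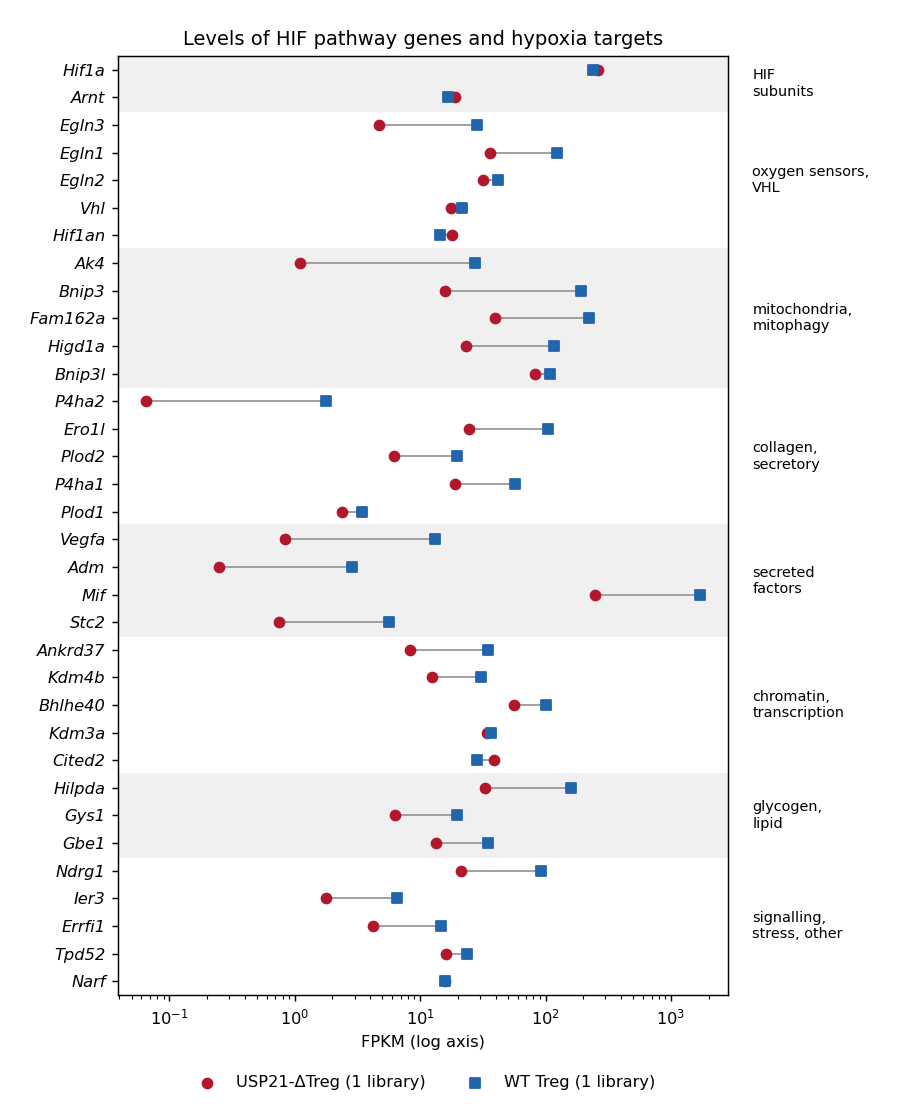
Level of each of the 34 HIF pathway genes and hypoxia targets, in FPKM on a log axis, with a circle for the USP21-ΔTreg library and a square for the WT library, grouped by role. The circles of the secreted factors lie far to the left of the squares, as for *Mif* at 249 FPKM in USP21-ΔTreg cells and 1714 FPKM in WT Treg cells, while the symbols of *Hif1a*, *Arnt*, *Kdm3a* and *Narf* nearly coincide.

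The HIF subunits were expressed at similar levels in both libraries. *Hif1a*, the oxygen-regulated subunit, stood at 261 FPKM (26375 fragments) in USP21-ΔTreg cells and 238 FPKM (29101 fragments) in WT Treg cells. It was the most highly expressed of the 34 genes in USP21-ΔTreg cells, where *Mif* followed at 249 FPKM, and it was second to *Mif* in WT Treg cells. Its direction depended on the scale, with a log2 fold change of 0.14 on FPKM and −0.31 on scaled counts, and its scaled counts stood in a ratio of 0.808 (0.795 to 0.822). Ranges given after a ratio of scaled counts are exact 95% Clopper-Pearson intervals, taken on the inferred fragments and covering counting error only. *Arnt*, the constitutive partner, had 19.0 FPKM in USP21-ΔTreg cells and 16.6 FPKM in WT Treg cells. Its log2 fold change was likewise 0.19 on FPKM and −0.06 on scaled counts, and its ratio was 0.956 (0.897 to 1.02), an interval that included equality.

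Among the sensors, *Egln1* and *Egln3* were lower in USP21-ΔTreg cells, and *Egln2*, *Vhl* and *Hif1an* differed by less than 2-fold. *Egln1* (PHD2), the main prolyl hydroxylase under normal oxygen and itself a HIF target, stood at 36.2 FPKM (2501 fragments) in USP21-ΔTreg cells, against 124 FPKM (8393 fragments) in WT Treg cells. This gave a log2 fold change of −1.77 on FPKM and −1.91 on scaled counts, with a ratio of 0.266 (0.254 to 0.278). *Egln3* (PHD3), the most strongly hypoxia-induced paralog in many cell types, had 4.71 FPKM (252 fragments) in USP21-ΔTreg cells and 28.6 FPKM (1609 fragments) in WT Treg cells. This was a log2 fold change of −2.58 on FPKM and a ratio of scaled counts of 0.140 (0.122 to 0.160), lower than that of *Egln1*, and the 2 intervals did not overlap. *Egln2* (PHD1), a paralog that is generally not induced by hypoxia, stood at 32.0 FPKM in USP21-ΔTreg cells and 41.4 FPKM in WT Treg cells, a log2 fold change of −0.37. In WT Treg cells the order of the prolyl hydroxylases was *Egln1*, *Egln2*, *Egln3*, and it was the same in USP21-ΔTreg cells, where *Egln1* and *Egln2* were close at 36.2 and 32.0 FPKM. *Vhl*, the substrate receptor of the ligase, had 17.6 FPKM in USP21-ΔTreg cells and 21.4 FPKM in WT Treg cells (log2 fold change −0.28). *Hif1an*, the asparaginyl hydroxylase, lay slightly the other way with 17.9 FPKM in USP21-ΔTreg cells and 14.5 FPKM in WT Treg cells, a log2 fold change of 0.30 on FPKM and 0.10 on scaled counts, and a ratio of 1.07 (1.01 to 1.14).

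The promoters of the 3 prolyl hydroxylase genes are shown because these paralogs differed in fold change. Each is the RefSeq window of GRCm38.p6 from 250 bases before to 50 bases after the start site, written 5′ to 3′ on the strand of the gene. Capitals mark ACGTG and GCGTG, both forms of the core of the hypoxia response element, on either strand, so that CACGT and CACGC are capitalised too. The windows lie at chr8:124949205-124949504 (minus strand) for *Egln1*, chr12:54203825-54204124 (minus strand) for *Egln3* and chr7:27166753-27167052 (minus strand) for *Egln2*.

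Egln1: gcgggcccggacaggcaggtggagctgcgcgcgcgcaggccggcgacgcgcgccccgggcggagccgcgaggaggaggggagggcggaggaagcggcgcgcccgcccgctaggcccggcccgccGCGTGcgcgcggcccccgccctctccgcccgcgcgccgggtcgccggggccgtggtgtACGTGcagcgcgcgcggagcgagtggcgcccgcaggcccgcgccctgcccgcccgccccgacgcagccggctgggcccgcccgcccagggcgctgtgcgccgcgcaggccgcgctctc

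Egln3: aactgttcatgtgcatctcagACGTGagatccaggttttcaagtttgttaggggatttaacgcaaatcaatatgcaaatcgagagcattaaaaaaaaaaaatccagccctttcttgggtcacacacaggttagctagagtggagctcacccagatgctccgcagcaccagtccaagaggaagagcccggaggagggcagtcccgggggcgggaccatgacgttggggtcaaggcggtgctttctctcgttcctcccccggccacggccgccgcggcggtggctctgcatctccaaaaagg

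Egln2: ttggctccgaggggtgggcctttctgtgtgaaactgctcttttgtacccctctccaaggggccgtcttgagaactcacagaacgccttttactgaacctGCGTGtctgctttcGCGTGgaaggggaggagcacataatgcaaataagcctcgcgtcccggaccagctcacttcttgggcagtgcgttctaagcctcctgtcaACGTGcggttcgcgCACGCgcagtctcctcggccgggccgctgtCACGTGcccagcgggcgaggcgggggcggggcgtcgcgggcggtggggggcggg

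The *Egln1* window held 1 ACGTG and 1 GCGTG, and the *Egln3* window held 1 ACGTG and 0 GCGTG. The *Egln2* window, from the more upstream of its 2 start sites, held 3 of each, and a CACGTG, which reads as ACGTG on both strands, gave 2 of the 3 ACGTG. The window of its other start site, chr7:27165679-27165978, held 0 ACGTG and 1 GCGTG. A match is a description of the sequence, not a binding site.

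The mitochondrial targets were the group with the lowest single value, and 4 of the 5 were lower by 2-fold or more. *Ak4*, an adenylate kinase of the mitochondrial matrix, had 1.10 FPKM (110 fragments) in USP21-ΔTreg cells and 27.6 FPKM (3035 fragments) in WT Treg cells. Its log2 fold change of −4.54 was the lowest of the 33 genes kept and the 12th lowest of all 10948, and its ratio of scaled counts was 0.0323 (0.0265 to 0.0391). *Bnip3*, a receptor on the outer membrane that recruits mitochondria for mitophagy, stood at 15.8 FPKM (542 fragments) in USP21-ΔTreg cells, against 191 FPKM (8233 fragments) in WT Treg cells. The log2 fold change was −3.59 on FPKM and −4.09 on scaled counts. Its paralog *Bnip3l* (NIX), which has the same role, stood apart, with 83.0 FPKM (5678 fragments) in USP21-ΔTreg cells and 109 FPKM (9006 fragments) in WT Treg cells. That was a log2 fold change of −0.39 on FPKM and −0.83 on scaled counts, and the intervals of the ratios of the 2 paralogs, 0.0587 (0.0537 to 0.0640) for *Bnip3* and 0.562 (0.544 to 0.581) for *Bnip3l*, did not overlap. In USP21-ΔTreg cells *Bnip3l* was the more highly expressed of the pair, whereas *Bnip3* was the higher in WT Treg cells.

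*Higd1a*, an inner membrane protein that associates with the respiratory chain, had 23.4 FPKM in USP21-ΔTreg cells and 118 FPKM in WT Treg cells (log2 fold change −2.33). *Fam162a*, a mitochondrial protein tied to cell death in hypoxia, had 39.6 FPKM in USP21-ΔTreg cells and 222 FPKM in WT Treg cells (log2 fold change −2.48). The ratios of scaled counts of this pair, 0.165 and 0.158, were nearly alike.

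The promoters of *Ak4* and *Bnip3*, the genes with the lowest fold change of this list and of its mitophagy receptors, lie at chr4:101419039-101419338 (plus strand) and chr7:138909457-138909756 (minus strand) in the same windows and with the same capitals.

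Ak4: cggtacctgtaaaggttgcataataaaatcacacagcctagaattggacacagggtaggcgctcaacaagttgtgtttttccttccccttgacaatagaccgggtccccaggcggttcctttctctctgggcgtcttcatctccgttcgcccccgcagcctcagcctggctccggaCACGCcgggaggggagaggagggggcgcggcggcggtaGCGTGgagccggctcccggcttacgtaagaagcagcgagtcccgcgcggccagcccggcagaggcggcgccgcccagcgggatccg

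Bnip3: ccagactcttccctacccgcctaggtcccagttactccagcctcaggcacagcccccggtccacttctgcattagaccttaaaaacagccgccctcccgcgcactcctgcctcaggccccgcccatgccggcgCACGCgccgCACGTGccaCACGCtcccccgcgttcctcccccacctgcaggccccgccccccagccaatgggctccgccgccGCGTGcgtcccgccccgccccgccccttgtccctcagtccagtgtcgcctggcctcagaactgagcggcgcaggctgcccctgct

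The *Bnip3* window held 2 ACGTG, both from 1 CACGTG, and 3 GCGTG. The *Ak4* window, at the first of 4 start sites, held 2 GCGTG and 0 ACGTG, and the window of the last start site, chr4:101419453-101419752, held 2 ACGTG and 1 GCGTG.

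**Figure D2:**
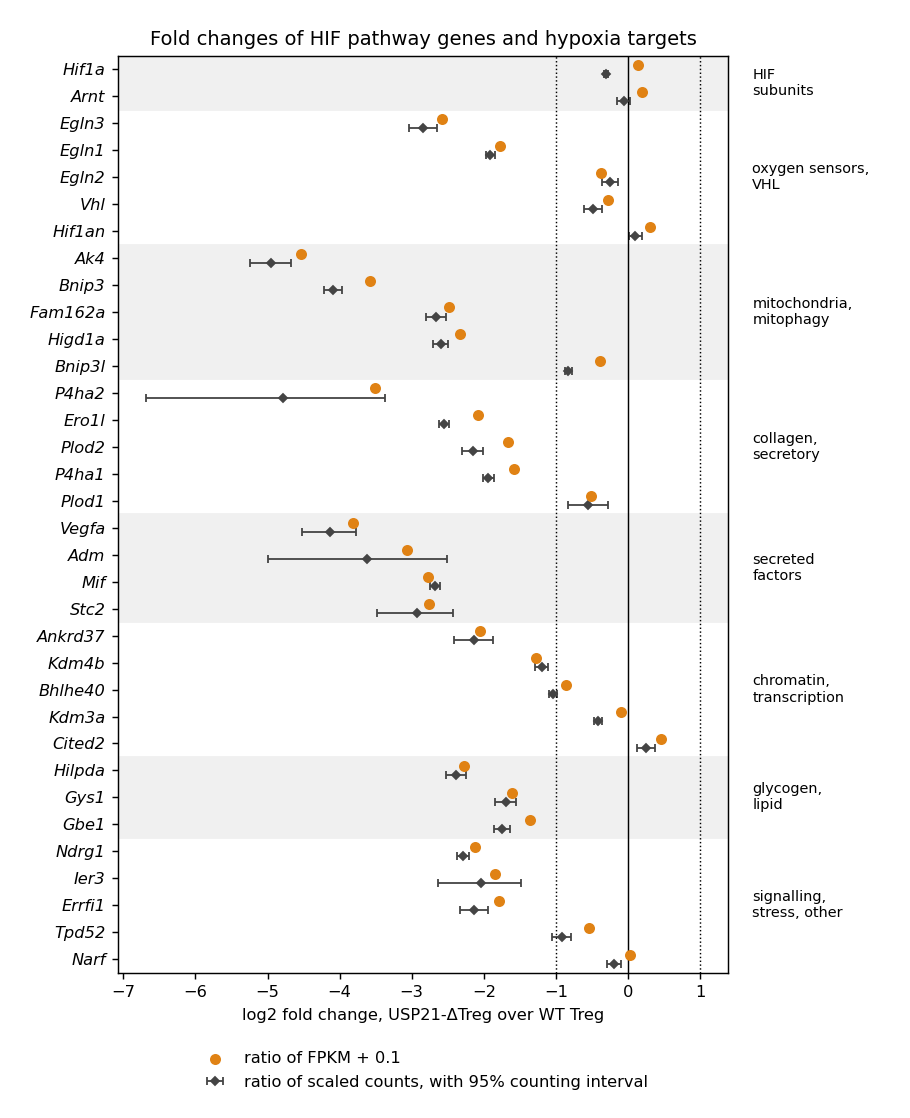
Log2 fold change of each gene, USP21-ΔTreg over WT, from FPKM + 0.1 (circles) and from scaled counts (diamonds, nothing added, bars for the 95% counting interval), with dotted lines at 2-fold and genes grouped by role. The bars of 22 genes lie wholly below a ratio of 0.5, and no symbol lies beyond the dotted line on the higher side. The share of all genes with such bars was not computed.

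The 4 secreted factors were all lower in USP21-ΔTreg cells, with a median log2 fold change of −2.92. *Vegfa*, the growth factor of blood vessel endothelium, had 0.843 FPKM (65 fragments) in USP21-ΔTreg cells and 13.2 FPKM (1015 fragments) in WT Treg cells, a log2 fold change of −3.81 and a ratio of 0.0571 (0.0437 to 0.0734). *Mif*, macrophage migration inhibitory factor, was the most abundant by far, with 249 FPKM (1683 fragments) in USP21-ΔTreg cells and 1714 FPKM (9602 fragments) in WT Treg cells (log2 fold change −2.78). *Mif* made up much of the summed level of the 34 genes, which was 1117 FPKM in USP21-ΔTreg cells and 3671 FPKM in WT Treg cells with it, and 867 FPKM in USP21-ΔTreg cells and 1957 FPKM in WT Treg cells without it. *Stc2*, a secreted glycoprotein hormone, had 0.755 FPKM (36 fragments) in USP21-ΔTreg cells and 5.68 FPKM (245 fragments) in WT Treg cells (log2 fold change −2.76). *Adm*, the precursor of the vasodilator adrenomedullin, had 0.251 FPKM (7 fragments) in USP21-ΔTreg cells and 2.84 FPKM (77 fragments) in WT Treg cells, and its log2 fold change of −3.07 had a wide interval on the ratio (0.0315 to 0.175). *Vegfa*, *Stc2* and *Adm* were under 1 FPKM in USP21-ΔTreg cells and were kept through their level in WT Treg cells. Of the 30 pathway and target genes at 1 FPKM or more in both libraries, 18 were lower and 0 higher, with a median of −1.60, beside 5.54% lower among all genes that met this minimum.

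In the collagen and secretory group 3 of the 4 genes kept were lower. *Ero1l*, the oxidase that drives disulphide bond formation in the endoplasmic reticulum, stood at 24.4 FPKM (2116 fragments) in USP21-ΔTreg cells, against 104 FPKM (11095 fragments) in WT Treg cells (log2 fold change −2.08). *P4ha1*, a catalytic subunit of collagen prolyl hydroxylase, had 19.0 FPKM in USP21-ΔTreg cells and 57.4 FPKM in WT Treg cells (log2 fold change −1.59). Its paralog *P4ha2* was barely expressed, with 0.0652 FPKM (4 fragments) in USP21-ΔTreg cells and 1.78 FPKM (98 fragments) in WT Treg cells, and at a mean of 0.924 FPKM it was the only gene of the 34 below the minimum. Its log2 fold change of −3.51 thus stood on few fragments, with a ratio of 0.0364 (0.00972 to 0.0962), and with it counted 22 of the 34 genes were lower when no minimum was set, beside 6.01% of all 16830 genes. Both lysyl hydroxylases of collagen were measured. *Plod2* had 6.15 FPKM in USP21-ΔTreg cells and 19.8 FPKM in WT Treg cells (log2 fold change −1.67), whereas *Plod1* had 2.39 FPKM in USP21-ΔTreg cells and 3.46 FPKM in WT Treg cells (log2 fold change −0.51). The intervals of their ratios, 0.203 to 0.248 for *Plod2* and 0.560 to 0.827 for *Plod1*, did not overlap.

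The 3 storage genes were all lower. *Hilpda*, a lipid droplet protein that restrains lipolysis, had 33.1 FPKM (536 fragments) in USP21-ΔTreg cells and 159.8 FPKM (2503 fragments) in WT Treg cells (log2 fold change −2.27). *Gys1*, the glycogen synthase of muscle and most other tissues, had 6.35 FPKM in USP21-ΔTreg cells and 19.7 FPKM in WT Treg cells (log2 fold change −1.62). *Gbe1*, the glycogen branching enzyme, had 13.4 FPKM in USP21-ΔTreg cells and 34.6 FPKM in WT Treg cells (log2 fold change −1.36). The enzymes of glycogen synthesis were therefore lower by close amounts, and *Hilpda* by more, with a ratio of 0.191 (0.174 to 0.210) against 0.308 (0.279 to 0.340) for *Gys1* and 0.298 (0.276 to 0.322) for *Gbe1*.

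Of the chromatin and transcription targets, 2 of 5 were lower by 2-fold or more on FPKM. *Ankrd37*, an ankyrin repeat protein, had 8.27 FPKM (149 fragments) in USP21-ΔTreg cells and 34.8 FPKM (586 fragments) in WT Treg cells (log2 fold change −2.06). *Kdm4b*, a histone lysine demethylase, had 12.5 FPKM in USP21-ΔTreg cells and 30.3 FPKM in WT Treg cells (log2 fold change −1.27). The related demethylase *Kdm3a* was nearly level, at 34.2 FPKM in USP21-ΔTreg cells and 36.8 FPKM in WT Treg cells, with a log2 fold change of −0.11 on FPKM and −0.42 on scaled counts. *Bhlhe40*, a transcriptional repressor that is also induced by T cell activation, had 55.7 FPKM (3868 fragments) in USP21-ΔTreg cells and 101 FPKM (7121 fragments) in WT Treg cells. Its log2 fold change of −0.86 on FPKM and −1.05 on scaled counts put it on opposite sides of the 2-fold limit, and it was the gene that made the count 22 on scaled counts. *Cited2*, which competes with HIF-1α for the coactivators CBP and Ep300, lay in the other direction with 39.1 FPKM (1318 fragments) in USP21-ΔTreg cells and 28.5 FPKM (989 fragments) in WT Treg cells. Its log2 fold change of 0.45 on FPKM was the highest of the 33 genes kept, and on scaled counts it was 0.25, with a ratio of 1.19 (1.09 to 1.29).

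The *Cited2* promoter, at chr10:17722978-17723277 (plus strand), is shown in the same form as the gene at the high end of the range.

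Cited2: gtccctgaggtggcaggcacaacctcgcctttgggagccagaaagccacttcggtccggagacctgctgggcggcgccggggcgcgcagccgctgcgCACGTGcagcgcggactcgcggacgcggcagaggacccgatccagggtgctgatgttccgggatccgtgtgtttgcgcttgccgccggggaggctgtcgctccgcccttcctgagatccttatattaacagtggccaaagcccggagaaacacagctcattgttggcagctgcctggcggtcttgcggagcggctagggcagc

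It held 2 ACGTG, both from 1 CACGTG, and 0 GCGTG, so the palindrome was present in the windows of *Bnip3*, far lower in USP21-ΔTreg cells, of *Egln2*, little changed, and of *Cited2*, slightly higher. Of the 34 genes, 28 had a RefSeq promoter in the table used (those of *Bhlhe40*, *Bnip3l*, *Kdm4b*, *Ndrg1*, *Plod2* and *Tpd52* were not used here). At least 1 window with ACGTG was found for 18 of the 28 genes (64.3%), for 15 of the 19 lower genes with a promoter (78.9%, *P4ha2* included) and for 3 of the 9 others (33.3%). Beside these stood 30.1% of the 8711 genes kept that had a promoter and 21.8% of all genes with a promoter. For GCGTG the shares were 67.9% of the 28 genes, 56.4% of these genes kept and 35.2% of all genes. It was found for 14 of the 19 lower genes (73.7%) and 5 of the 9 others (55.6%). CACGTG was in 5 of the 28 (17.9%), beside 12.1% of the same genes kept and 8.09% of all genes. Its split went the other way, with 2 of the 19 lower genes (10.5%) and 3 of the 9 others (33.3%). Known hypoxia targets were picked for the list, some of them through such elements, so these shares carry no support for the fold changes, and the absence of the letters from a window says nothing of sites outside it.

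Of the 5 remaining targets 3 were lower in USP21-ΔTreg cells. *Ndrg1*, a stress-induced protein tied to differentiation, had 21.2 FPKM (1427 fragments) in USP21-ΔTreg cells and 92.2 FPKM (6209 fragments) in WT Treg cells (log2 fold change −2.12). *Errfi1*, an inhibitor of EGF receptor signalling, had 4.18 FPKM in USP21-ΔTreg cells and 14.7 FPKM in WT Treg cells (log2 fold change −1.79). *Ier3*, an immediate early gene of stress responses, had 1.76 FPKM (34 fragments) in USP21-ΔTreg cells and 6.56 FPKM (125 fragments) in WT Treg cells, a log2 fold change of −1.84 with a ratio of 0.243 (0.161 to 0.357). *Tpd52*, a protein of vesicle trafficking, and *Narf*, a prelamin-binding protein, were not 2-fold apart. *Tpd52* had 16.2 FPKM in USP21-ΔTreg cells and 23.7 FPKM in WT Treg cells (log2 fold change −0.55 on FPKM and −0.92 on scaled counts). *Narf* had 15.9 FPKM in USP21-ΔTreg cells and 15.7 FPKM in WT Treg cells, with a log2 fold change of 0.02 on FPKM and −0.20 on scaled counts, so that its sign followed the scale.

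Across the 34 genes, 31 had a counting interval wholly below a ratio of 1 and 2, *Hif1an* and *Cited2*, had it wholly above 1. The 31 included *Hif1a* (ratio 0.808) and *Narf* (ratio 0.872), which lay above 0 on FPKM. The share of all genes with such an interval was not computed. Intervals are narrow where fragments are many, so this count is not read as a result about the list. The FPKM fold change lay above that of scaled counts for 31 of the 34. The shift, 0.24 at the median, was close to the difference of 0.20 between the medians of all genes kept. Only *Hif1a*, *Arnt* and *Narf* changed sign with it. Of the 110 genes that made up the lowest 1% of those kept, with log2 fold changes of −2.36 or less, 8 were of this list, and 4 were among the lowest 50. The lower genes were spread over levels from weakly to highly expressed, as the plot of fold change by mean FPKM shows.

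**Figure D3:**
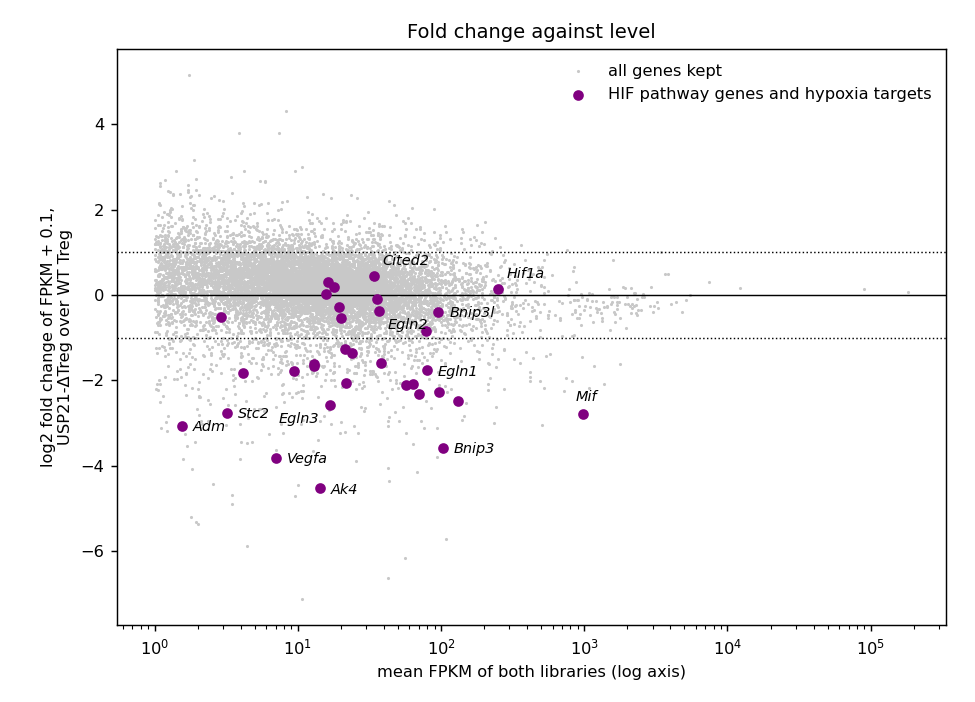
Log2 fold change of FPKM + 0.1, USP21-ΔTreg over WT, against mean FPKM on a log axis for the 10948 genes kept (grey) and the 33 HIF pathway genes and hypoxia targets among them (purple), with dotted lines at 2-fold. The purple points below the dotted line run from *Adm* at a mean of 1.55 FPKM to *Mif* at 982 FPKM, with *Ak4* the lowest at −4.54.

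Expression of 10 of the 34 genes was measured over exons that overlap another gene in GENCODE M21 (*Ankrd37*, *Bhlhe40*, *Bnip3*, *Egln2*, *Fam162a*, *Gys1*, *Hif1a*, *Higd1a*, *Ndrg1* and *Plod2*), and 4 others have a named pseudogene (*Bnip3l*, *Mif*, *Tpd52* and *Vhl*). The use of strand in counting was not given in the sources used here, so reads of overlapping genes cannot be told apart. *Ruvbl2*, which overlaps *Gys1* on the opposite strand, was itself lower, with 14.8 FPKM in USP21-ΔTreg cells and 51.6 FPKM in WT Treg cells. *Ufsp2*, which overlaps *Ankrd37*, was level at 16.4 FPKM in both, and *Wdr5b*, which overlaps *Fam162a*, was higher at 14.5 FPKM in USP21-ΔTreg cells and 6.98 FPKM in WT Treg cells. Among the 19 genes kept with neither kind of overlap, 13 were lower and 0 higher, with a median log2 fold change of −1.77. Over all genes kept, not filtered for overlaps, 6.2% were lower and 7.78% higher. The 34 genes lie on 14 chromosomes, with at most 4 on any of them.

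Further genes of the HIF pathway showed no such skew. Of 22 kept, which included the ubiquitin ligase partners of VHL, coactivators and deubiquitinases, 1 was lower and 1 higher, with a median log2 fold change of 0.10. The lower gene was *Hsp90ab1*, a chaperone of HIF-1α, with 231 FPKM in USP21-ΔTreg cells and 640.3 FPKM in WT Treg cells (log2 fold change −1.47). The higher gene was *Epas1*, which encodes HIF-2α, at 1.91 FPKM in USP21-ΔTreg cells and 0.701 FPKM in WT Treg cells (264 and 90 fragments), a log2 fold change of 1.33. *P4htm*, a transmembrane prolyl hydroxylase, joined it on scaled counts, with a log2 fold change of 1.05 there and 0.95 on FPKM. *Hif3a*, the third α subunit, had 0.186 FPKM in USP21-ΔTreg cells and 0.260 FPKM in WT Treg cells and was below the minimum, so *Hif1a* was far above the other α subunits in FPKM in both libraries.

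Most glycolytic hypoxia targets were lower in USP21-ΔTreg cells. Of 23 kept, 16 were lower and 0 higher, with a median log2 fold change of −1.94, beside −1.67 for the 34-gene list. *Hk2*, the inducible hexokinase, had 3.14 FPKM in USP21-ΔTreg cells and 48.1 FPKM in WT Treg cells (log2 fold change −3.89). *Tpi1*, triosephosphate isomerase, had 108 FPKM in USP21-ΔTreg cells and 902 FPKM in WT Treg cells (log2 fold change −3.05). *Slc2a1*, the glucose transporter GLUT1, had 23.2 FPKM in USP21-ΔTreg cells and 146 FPKM in WT Treg cells (log2 fold change −2.65), and *Pgam1*, phosphoglycerate mutase, was at −2.54. The lone gene above 0 was *Pfkfb4*, a regulator of fructose bisphosphate levels, at 0.37.

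A further 35 hypoxia targets outside glycolysis that were not among the 34 gave a less skewed picture, with 10 lower, 1 higher and a median log2 fold change of −0.23. The lowest were *Car12*, a carbonic anhydrase, at −3.54, *Tmem45a* at −2.96, *Hmox1*, the haem oxygenase, at −2.70 and *Pgm2*, a phosphoglucomutase, at −2.31. *Cxcr4*, the receptor of the chemokine CXCL12, was the higher gene, with 195 FPKM in USP21-ΔTreg cells and 91.9 FPKM in WT Treg cells, a log2 fold change of 1.09 on FPKM and 0.83 on scaled counts. The share of hypoxia targets that were lower therefore depended on which targets were listed, 19 of 26 kept in the 34-gene list against 10 of 35 in the further list.

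**Figure D4:**
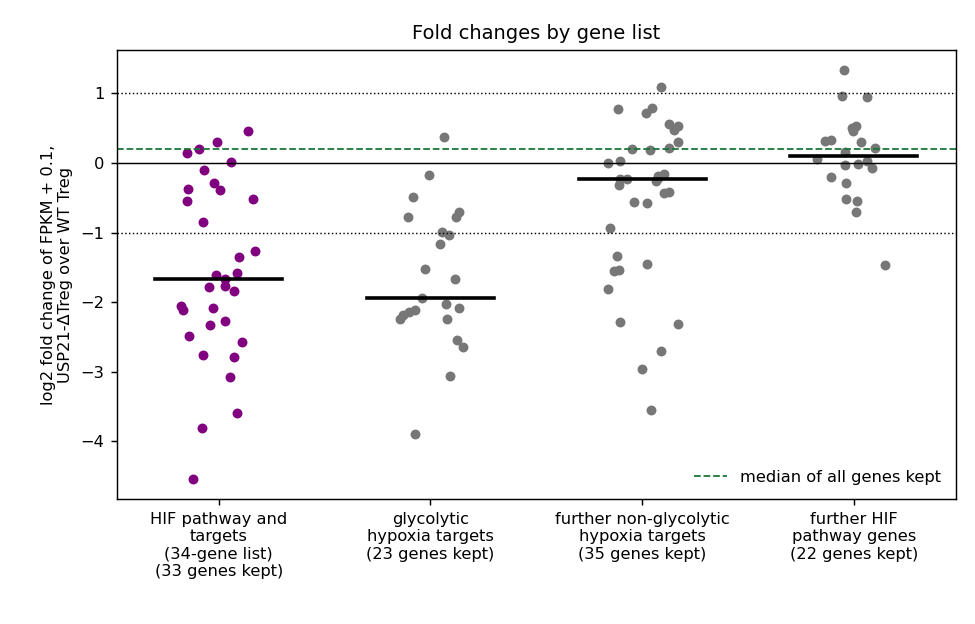
Log2 fold change of FPKM + 0.1, USP21-ΔTreg over WT, for each gene kept (points) of the 34-gene list and of 3 further lists, with the list median as a black bar, the median of all genes kept as a dashed line and 2-fold as dotted lines. The medians are −1.67, −1.94, −0.23 and 0.10 from left to right, and the dashed line is at 0.20.

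Other gene groups differed between these libraries together with the hypoxia targets. Of 11 growth genes linked to MYC and mTORC1 signalling, 7 were lower and 0 higher, with a median log2 fold change of −1.59, and *Srm* (spermidine synthase, −2.98), *Myc* (−2.71), *Slc7a5* (an amino acid transporter, −2.39) and *Cad* (a pyrimidine synthesis enzyme, −1.84) were the lowest. Markers of other cells, most of them at low levels, differed as well. All 4 B cell markers kept of 5 were higher, with a summed level of 25.6 FPKM in USP21-ΔTreg cells and 10.2 FPKM in WT Treg cells over the 5. Of the NK and CD8 T cell markers 2 of 4 kept were higher (56.2 FPKM in USP21-ΔTreg cells and 20.1 FPKM in WT Treg cells over 6), as were 2 of 3 kept of the monocyte, macrophage and neutrophil markers (50.4 FPKM in USP21-ΔTreg cells and 24.5 FPKM in WT Treg cells over 7). Of the erythroid and platelet markers 2 of 4 kept were higher and 2 lower (77.5 FPKM in USP21-ΔTreg cells and 27.3 FPKM in WT Treg cells over 7). All 4 were globin genes, with *Hba-a1* and *Hbb-bs* higher and their paralogs *Hba-a2* and *Hbb-b1* lower. How reads were divided between these paralogs was not tested, so they are not 4 separate markers. *Pf4* and *Ppbp* stood at 0 in WT Treg cells and at only 3 and 1 fragments in USP21-ΔTreg cells. Of the dendritic cell markers the 1 kept, *Zbtb46*, was lower, at 4.61 FPKM in USP21-ΔTreg cells and 10.7 FPKM in WT Treg cells. It made up most of the summed level (6.67 FPKM in USP21-ΔTreg cells and 11.5 FPKM in WT Treg cells over 5). *Itgax*, *Flt3*, *Xcr1* and *Siglech*, all below the minimum, were each higher in USP21-ΔTreg cells. Of the stromal and endothelial markers the 1 kept was not 2-fold apart, with *Cdh5* at 0 in USP21-ΔTreg cells and 2 fragments in WT Treg cells. Immediate early genes, which respond to cell handling, were lower for 2 of 7 kept, with a summed level of 397 FPKM in USP21-ΔTreg cells and 810.4 FPKM in WT Treg cells over 8. The part of these groups in the levels of the hypoxia targets was not tested.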

How the data were processed

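The authors mapped reads of the 2 libraries to mm10 with TopHat2 2.0.9 and ran Cufflinks 2.1.1, and the annotation version was not given in the sources used here. The methods describe stranded total RNA libraries and the sample labels a TruSeq RNA kit without that word. In the deposited table, FPKM values are normalised for the length of a transcript and the depth of a library. The deposited count columns are not whole numbers and were treated as a signal that the authors had scaled between libraries. The commonest value above 0, 0.918 for USP21-ΔTreg and 1.03 for WT, was taken as 1 fragment, and 97.2% of values in each library were then whole within 0.02. No count model was fitted. Columns mapped to no sample numbered 0, and no column of the authors' comparisons was used.

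Fold changes, medians and exact Clopper-Pearson intervals (95%, counting error only, no molecular identifiers) were obtained in Python 3.11.15 (pandas 2.3.3, numpy 2.4.6, scipy 1.17.1; plots in matplotlib 3.10.9), and the steps were tested on simulated data. A pseudocount of 0.1 FPKM, a minimum mean of 1 FPKM and a 2-fold limit were used; on scaled counts the value of 1 fragment was added. The genes and lists were chosen with earlier results of these data known. All 34 genes were named, and of other lists up to 4 with the largest fold change and any lone gene in the opposite direction. Genes that overlap a listed gene were named after their values were seen. Exon overlaps came from GENCODE M21 and promoters from RefSeq (GRCm38.p6), both on the assembly of the files. Other pseudocounts, minimums, scalings, fold limits and gene subsets were tried.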

Additional observations from a re-analysis of the deposited data

How the results depend on the processing

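All 22 genes at least 2-fold lower (with *P4ha2* counted) stayed so under the 5 alternatives that can alter a gene's own value (pseudocounts and scalings). For centring, upper quartile scaling and 0.01 FPKM added this was fixed in advance, because each could only move a lower gene further down. Only 1 FPKM added and scaled counts could have brought such a gene short of 2-fold. Over the 5 alternatives, 112 of 170 fold changes moved by less than their counting interval and 58 by more. A minimum mean of 5 FPKM removed *P4ha2*, *Adm*, *Stc2* and *Ier3* from the 22 genes, with 18 of 29 lower, beside 513 of all genes lower at that minimum. The share that these 513 make up of all genes at that minimum was not computed, so 18 of 29 has no background share here. At least 1 FPKM in both libraries removed *P4ha2*, *Vegfa*, *Adm* and *Stc2*, with 18 of 30 lower, beside 5.54% of all genes that met it. No gene of the 34 was counted as higher under any alternative run. Scaled counts moved the medians to −1.94 for the 34-gene list, −0.13 for further HIF pathway genes and −0.54 for further targets outside glycolysis, with 2 further pathway genes, 0 further targets and 475 of all genes higher. Centring on the median of all genes gave medians of −1.87, −0.093 and −0.43 for these lists and −2.14 for glycolytic targets, with 0 further targets and 488 of all genes higher, and upper quartile scaling gave −2.01 for glycolytic targets. With 1 FPKM added, 0 further pathway genes and 482 of all genes were higher. With no minimum, 3 further targets and 1460 of all genes were higher, and with a minimum mean of 5 FPKM, 0 further pathway genes and 447 of all genes, with medians of 0.0059 for further pathway genes and −2.02 for glycolytic targets. A 1.5-fold limit gave 2 further pathway genes lower and 3 higher, 4 further targets higher, and 1326 of all genes lower and 2506 higher. A 3-fold limit gave 0 further pathway genes lower and 0 higher, 6 further targets lower and 0 higher, and 312 of all genes lower and 178 higher. In alternatives chosen after seeing the data, 0 further pathway genes were higher with at least 1 FPKM in both libraries. Without genes that share exons or have a named pseudogene, 13 of 19 genes were lower, beside 6.2% of all genes kept with no such filter. Centring and upper quartile scaling apply 1 common shift or factor to every gene. A different pseudocount, minimum or fold limit alters values or counts by its rule. What lay behind the moves on scaled counts was not tested. No paired analysis was possible because there was 1 library of either genotype. Fold changes of *Adm*, *P4ha2*, *Ier3* and *Stc2* rest on 4 to 36 fragments in USP21-ΔTreg cells, which limits their precision.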
